A study of Mus musculus with 18 samples.

Results

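The Hox genes are the homeobox genes that give body segments their identity along the head-to-tail axis. They were taken here as the protein-coding genes whose GENCODE symbol is Hoxa, Hoxb, Hoxc or Hoxd followed by a number. All 39 were present among the 47643 genes of the count tables, 11 in the Hoxa cluster, 10 in Hoxb, 9 in Hoxc and 9 in Hoxd. RNA was sequenced from spot cultures of embryonic dorsal root ganglia (eDRG spot), made from CD-1 mice at stage e13.5 and grown with FDU, an inhibitor of cell division, and with nerve growth factor. The uninjured control cultures were collected at 7 days in vitro, and the axons of the other cultures were cut with a blade, with collection 1, 3, 8, 16 or 24 h post injury (HPI). The sources differ on whether day 7 was the day of injury or of collection of these cultures. If it was the day of injury, age in culture rose with time after injury, and the effects of both cannot be told apart. Each of the 6 groups had 3 replicates, 18 libraries in all. The axial level of the ganglia and the number of embryos behind a culture are not given in the sources used here, and neither is what a replicate number stands for, so p-values measure the spread between these samples.

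Hox proteins are transcription factors that bind DNA together with cofactors of the Pbx, Meis and Pknox families. The genes of 1 cluster lie in a row, and genes at the same place in different clusters carry the same paralog number. Low-numbered genes begin to be used early and reach far towards the head, and high-numbered genes are used later and nearer the tail, so that a neuron of the neck and a neuron of the lower back hold different sets. In the spinal cord and its ganglia these sets shape which neuron types form at each level. Hoxd1 has a further known role in the dorsal root ganglion, where nerve growth factor signalling turns it on in pain-sensing neurons.

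In GRCm38 the Hoxa cluster spanned chr6:52155590-52260880 on the minus strand. The other clusters lay on the plus strand, Hoxb at chr11:96194316-96368256, Hoxc at chr15:102921103-103036852 and Hoxd at chr2:74668310-74765142. Exons of 16 of the 39 genes shared bases with another annotated gene, 9 of them on the same strand and 10 on the opposite strand. The shared stretch made up 62.8% of the exon length of Hoxd3, 52.9% of Hoxb3 and 52.3% of Hoxd4, and counts of these genes are therefore less certain. Hoxd1, Hoxa5, Hoxa10, Hoxb6, Hoxb8 and Hoxb9 shared no exon bases with any other gene.

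The 250 bases before the start of 4 members are shown. Hoxd1 changed most after injury, and Hoxa5 had the highest level per base of merged exon. Hoxb8 was among the genes that differed most between replicate numbers. Hoxd10 is shown as a description only, since its counts were high enough for testing only through replicate 1. They are RefSeq sequences of GRCm38.p6 on the strand of the gene, Hoxd1 at chr2:74762730-74762979 (plus), Hoxa5 at chr6:52204588-52204837 (minus), Hoxb8 at chr11:96281655-96281904 (plus) and Hoxd10 at chr2:74691641-74691890 (plus). Capitals mark the CCAAT box, written with those letters, the TATA box as TATAAA, and a form bound by Hox and Pbx together, TGATNNAT, each searched on both strands.
Hoxd1: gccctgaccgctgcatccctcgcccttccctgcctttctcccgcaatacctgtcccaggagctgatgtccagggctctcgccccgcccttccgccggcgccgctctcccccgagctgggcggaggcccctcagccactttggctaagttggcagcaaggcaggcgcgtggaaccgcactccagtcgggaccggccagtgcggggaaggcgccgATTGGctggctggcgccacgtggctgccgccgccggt
Hoxa5: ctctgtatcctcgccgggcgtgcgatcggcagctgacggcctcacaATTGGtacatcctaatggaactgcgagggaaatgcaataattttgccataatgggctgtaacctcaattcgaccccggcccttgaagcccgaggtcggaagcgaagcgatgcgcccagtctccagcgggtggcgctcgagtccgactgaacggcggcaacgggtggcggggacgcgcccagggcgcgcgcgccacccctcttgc
Hoxb8: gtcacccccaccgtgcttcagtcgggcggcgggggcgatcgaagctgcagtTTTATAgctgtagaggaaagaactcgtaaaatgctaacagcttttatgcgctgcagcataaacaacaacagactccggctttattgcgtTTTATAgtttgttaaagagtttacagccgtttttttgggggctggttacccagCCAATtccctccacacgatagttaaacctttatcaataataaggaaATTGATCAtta
Hoxd10: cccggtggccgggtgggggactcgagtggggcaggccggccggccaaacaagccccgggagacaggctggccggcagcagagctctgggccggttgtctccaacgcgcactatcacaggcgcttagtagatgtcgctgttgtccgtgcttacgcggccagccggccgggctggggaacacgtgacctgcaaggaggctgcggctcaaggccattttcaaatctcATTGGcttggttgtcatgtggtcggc

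The window of Hoxd1 was 71.6% G and C with 24 CpG pairs, that of Hoxa5 63.6% with 28, that of Hoxd10 65.6% with 20 and that of Hoxb8 44.4% with 12. Over the 22 Hox genes with a RefSeq entry the median was 56.8%, against 52.0% over 27025 genes. CCAAT stood in 13 of these 22 windows and in 34.3% of all windows. TATAAA stood in 3 (Hoxb8, Hoxd4 and Hoxd13) and in 12.9% of all, and TGATNNAT in 3 (Hoxa2, Hoxb1 and Hoxb8) and in 7.86% of all. The long noncoding gene Haglr starts 84 bases before Hoxd1 on the opposite strand, so that most of the Hoxd1 window is also the start of Haglr.

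Counts on genes ran from 9478891 to 23082327 per library, and counts on Hox genes from 2905 to 7641. Between 25.2% and 33.2% of the counts had been set aside without a gene, and the share set aside as ambiguous was 5.11% in 16 HPI replicate 1 and 2.93% to 3.57% in the others. Markers of sensory neurons (Tubb3, Avil, Prph and Calca among them) summed to between 7670 and 9690 CPM (counts per library total, scaled by TMM) in every library. The 8 markers of satellite glia and Schwann cells summed to between 1.55 and 12.7 CPM, the 8 of fibroblasts to between 1.31 and 19.6, the 4 of endothelial cells to between 0.374 and 1.42, and the 4 of myeloid cells to between 3.37 and 6.82. Of 6 markers of spinal cord neurons, Mnx1 was at 0 in all libraries and Olig2 at 0 in 17, while Slc5a7 was at 15.1 ± 3.64 CPM in control (SD, n = 3). In such bulk samples, fewer cells of a type and less RNA per cell cannot be told apart.

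In uninjured control cultures, genes of the middle of the Hoxa and Hoxb clusters had the highest levels. Levels are compared between genes as RPKM, the TMM-scaled CPM per 1000 bases of exon. Hoxa5, which patterns the neck and upper trunk, was at 14.2, 25.2 and 16.2 RPKM in replicates 1, 2 and 3, with a mean of 18.5 ± 5.84 (SD, n = 3). This level was above that of 83.5% of the 13728 tested genes with a known exon length. Hoxa7, a gene of thoracic identity, followed at 14.7 ± 2.09 RPKM, then Hoxb7 at 12.7 ± 2.02, Hoxb6 at 11.2 ± 6.82 and Hoxd8 at 7.24 ± 0.751. Hoxb9 had 6.81 ± 3.36 RPKM, Hoxd1 6.59 ± 1.15 and Hoxa9 6.20 ± 0.872. This order depends on the exon length used. Per base of the longest transcript Hoxa7 came first at 20.8 RPKM, ahead of Hoxa5 at 18.5, and Hoxa9 was at 10.7. Hoxb6 was at 6.99, 19.1 and 7.55 RPKM, so that replicate 2 alone stood high, and Hoxb9 was at 2.94, 8.54 and 8.96, so that replicate 1 alone stood low. The highest gene of the Hoxc cluster was Hoxc10, a gene of lumbar levels, at 2.48, 1.62 and 2.17 RPKM.

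**Figure D1:**
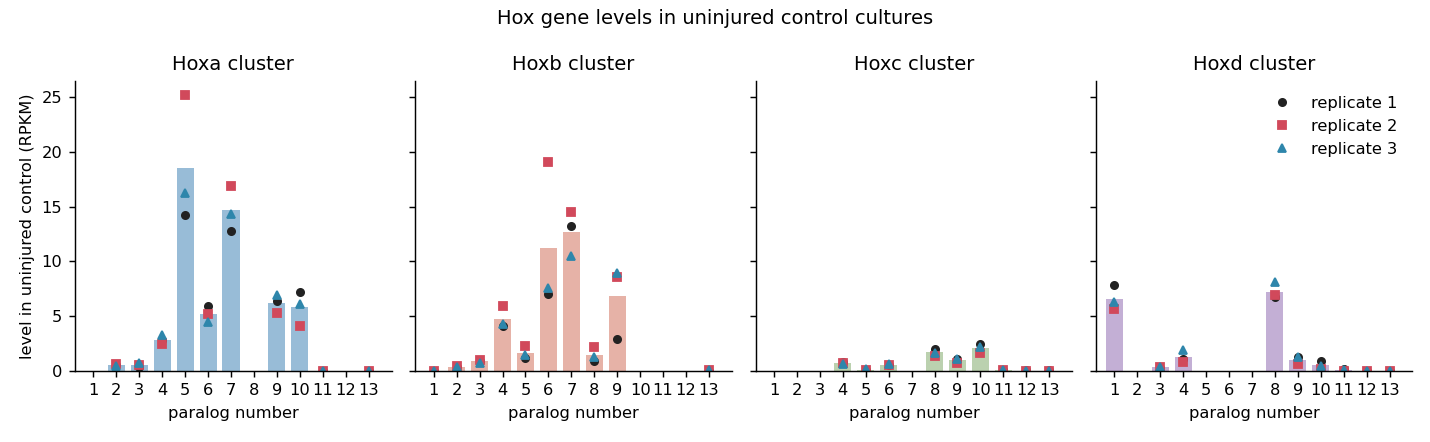
Levels of the Hox genes (1 not shown) in uninjured control cultures, in RPKM, by paralog number (x axis) in each of the 4 clusters. Bars are means and points the 3 replicates. By merged exon length Hoxa5, Hoxa7, Hoxb6 and Hoxb7 stand highest, the Hoxc genes all lie under 3 RPKM, and in the Hoxd cluster Hoxd1 and Hoxd8 stand apart from their neighbours.

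In all, 10 genes were above 5 RPKM in mean and 18 above 1 RPKM, and 11 lay above the median of the tested genes, 4.35 RPKM. In the order of the 39 levels, the ranges of neighbours overlapped in 36 of 38 pairs. The exceptions were Hoxb4 (4.06 to 5.89 RPKM) above Hoxa4 (2.45 to 3.23), and Hoxd3 (0.279 to 0.368) above Hoxc5 (0.0823 to 0.140). More than 3 counts in each of the 3 control libraries were found for 28 genes. Hoxd10 missed this limit with 33, 3 and 18 counts.

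The Hoxa cluster held 46.5% ± 1.07 (SD, n = 3) of the summed Hox level in control, the Hoxb cluster 33.3% ± 6.08, the Hoxd cluster 14.7% ± 3.51 and the Hoxc cluster 5.39% ± 1.52. By paralog number, group 7 (Hoxa7 and Hoxb7) held 23.3% ± 1.17, group 5 17.0% ± 3.20, group 6 14.1% ± 3.87 and group 9 12.8% ± 2.93. Groups 1 to 8 together held 79.6% ± 4.30. Group 1 held 6.06% ± 1.64, and Hoxb1, a hindbrain gene of this group, had no count in control. Group 10 held 7.37% ± 2.80, mostly from Hoxa10. Groups 11, 12 and 13, the genes of sacral and tail levels, held 0.124%, 0.0154% and 0.0399%.

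Of the 39 genes, 28 passed the limit for testing of over 1 CPM in at least 3 libraries. The 11 that did not were Hoxa11, Hoxa13, Hoxb1, Hoxb13, Hoxc5, Hoxc11, Hoxc12, Hoxc13, Hoxd11, Hoxd12 and Hoxd13. Hoxd12 had no count in any library, which allows up to 3 counts in each, 0.130 to 0.316 CPM before scaling, and covers counting error only. Hoxa11, Hoxa13, Hoxb1 and Hoxd13 had 1 count in 1 library each. In 7 of the 11, no library passed 3 counts.

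Whether the Hox genes changed after axotomy was tested with edgeR's quasi-likelihood test and Benjamini-Hochberg adjustment over all 13771 tested genes, with the replicate number in the model. Called means an adjusted p under 0.05. At 1 HPI no Hox gene was called, against 0.276% of all tested genes, and at 3 HPI none, against 0.189%. At an unadjusted p under 0.05 there were 3 of 28 at each of these times, against 12.8% and 14.5% of all tested genes. DESeq2 called none, with an adjusted p for 3 of the 28 genes at 1 HPI and for 4 at 3 HPI. At 8 HPI 3 of 28 were called, against 7.68% of all tested genes, 2 of them lower (3.90% of all) and 1 higher (3.78%). At 16 HPI 8 of 28 were called, or 28.6% against 22.2% of all, 6 of them lower (11.5%) and 2 higher (10.7%). At 24 HPI 4 of 28 were called, or 14.3% against 15.0% of all, 2 lower (9.03%) and 2 higher (5.99%). Hoxd3, which passed the limit for testing only through replicate 3, is among the lower ones at 16 and 24 HPI.

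None of these calls was over 2-fold, which 0.0290%, 0.0290%, 0.537%, 1.49% and 0.821% of all tested genes were at 1, 3, 8, 16 and 24 HPI. The F test over the 5 time points called 10 Hox genes of 28, against 30.0% of all tested genes. They were Hoxa3, Hoxa5, Hoxa7, Hoxa9, Hoxa10, Hoxb3, Hoxb6, Hoxb9, Hoxd1 and Hoxd4. The median log2 fold change of the 28 was -0.00, 0.03, -0.07, -0.14 and 0.06 at 1, 3, 8, 16 and 24 HPI, and that of all tested genes lay within 0.002 of 0 at each time. The summed level of all 39 genes was 118 ± 14.4 RPKM in control, 103 ± 13.4 at 16 HPI and 117 ± 12.9 at 24 HPI.

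Hoxd1 showed the clearest change. Its level was 7.86, 5.62 and 6.28 RPKM in control replicates 1, 2 and 3, and 7.37, 5.25 and 6.92 at 1 HPI. It was 8.46, 5.52 and 6.01 RPKM at 3 HPI and 5.0, 4.38 and 4.42 at 8 HPI. It reached 3.82, 2.98 and 3.19 RPKM at 16 HPI and stood at 5.92, 4.27 and 4.76 at 24 HPI. All libraries of 8 and 16 HPI lay below all controls, and those of 24 HPI overlapped the controls.

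The log2 fold change of Hoxd1 was -0.53 (SE 0.10, adjusted p = 0.00187 by edgeR) at 8 HPI and -0.98 (SE 0.10, adjusted p = 7.89e-07) at 16 HPI, a level of 0.507 times control. At 24 HPI it was -0.40 (SE 0.09, adjusted p = 0.00470). Each of these falls was seen within all 3 replicate numbers, with log2 differences of -1.03, -0.90 and -0.97 at 16 HPI. From 16 to 24 HPI, a comparison added after values were seen, Hoxd1 rose by a log2 difference of 0.58 (SE 0.10, adjusted p = 0.000999). The call at 16 HPI was kept in all 13 alternatives tried, with log2 fold changes from -1.01 to -0.94. The calls at 8 and 24 HPI were lost without the replicate number in the model, with adjusted p = 0.373 and 0.345.

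**Figure D2:**
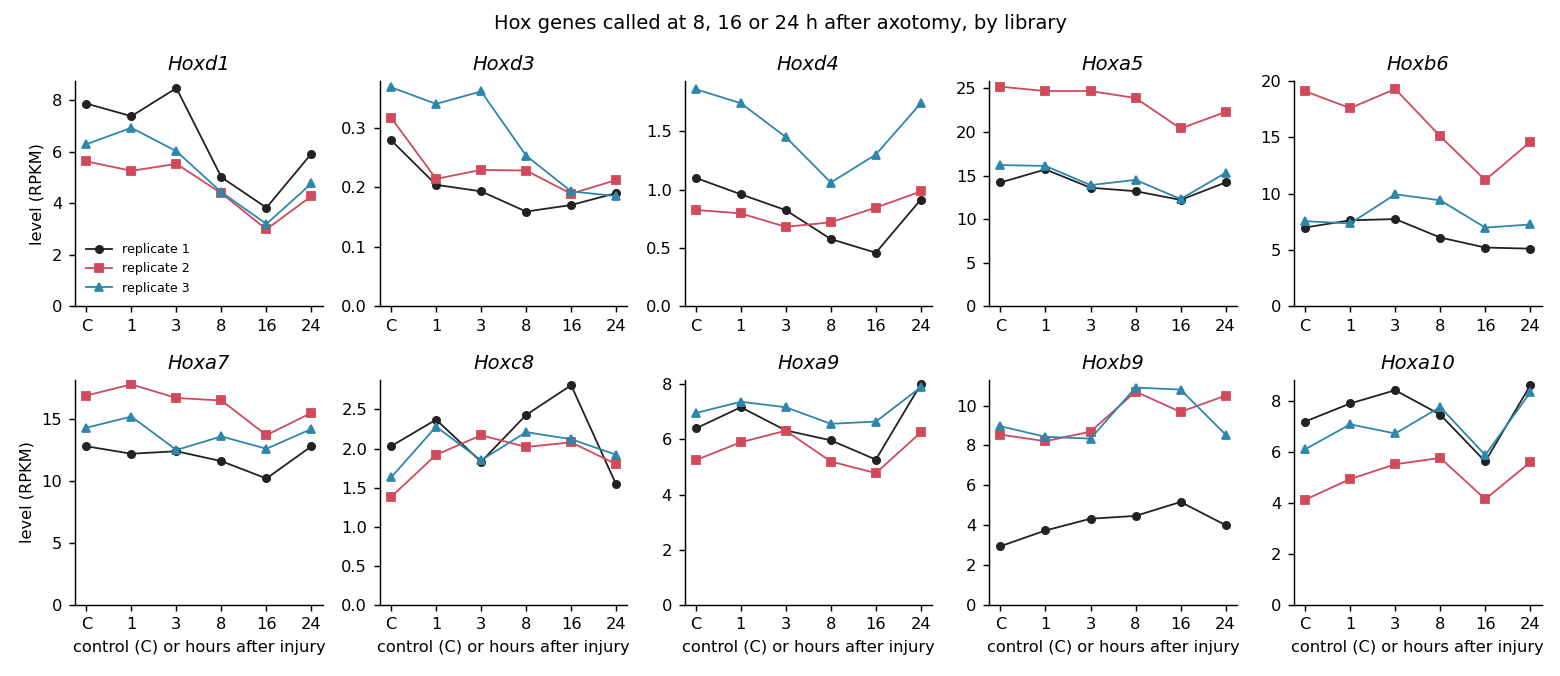
Levels in RPKM (y axis, from 0) of the 10 Hox genes called at 8, 16 or 24 HPI, in control (C) and by hours after injury (x axis), with 1 line for each replicate number. Hoxd1 is lowest at 16 HPI in all 3 replicates and higher again at 24 HPI, and 1 line stands apart for Hoxa5 and Hoxb6 (replicate 2, high) and for Hoxb9 (replicate 1, low).

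The neighbours Hoxd3 and Hoxd4, which share exons, were also lower. Hoxd3, whose exons are counted with most uncertainty, was at 0.279, 0.317 and 0.368 RPKM in control and at 0.170, 0.189 and 0.193 at 16 HPI, with no overlap. Its log2 fold change was -0.80 (SE 0.25, adjusted p = 0.0237 by edgeR) at 16 HPI and -0.72 (SE 0.24, adjusted p = 0.0449) at 24 HPI. Control libraries held 18 to 32 counts of it. Hoxd3 was over 1 CPM in 6 libraries, those of control and replicate 3 of 1, 3 and 8 HPI. It passed the limit for testing only through replicate 3, and its calls serve as a description. At 16 HPI 10 of 13 alternatives lost the call (adjusted p up to 0.160). Among them were both other settings of the filter on low counts, and leaving out any 1 control library or 16 HPI replicate 3. At 24 HPI 11 of 12 lost it, among them both filter settings and leaving out any 1 library (adjusted p up to 0.342). Hoxd4 was at 1.10, 0.825 and 1.86 RPKM in control, at 0.575, 0.719 and 1.06 at 8 HPI and at 0.458, 0.845 and 1.30 at 16 HPI, with overlap at both times. Its log2 fold change was -0.73 (SE 0.18, adjusted p = 0.0177) at 8 HPI and -0.53 (SE 0.18, adjusted p = 0.0321) at 16 HPI. Replicate 2 moved by -0.19 at 8 HPI and by 0.03 at 16 HPI. Both calls were lost without replicate 1 or replicate 3 of either group, with an adjusted p of 0.0671 to 0.168 at 8 HPI and of 0.100 to 0.164 at 16 HPI. Hoxd8, Hoxd9 and Hoxd10, further along the same cluster, were not called at any time.

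In the Hoxa cluster all 9 tested genes had a log2 fold change below 0 at 16 HPI, where 50.5% of all tested genes did, and 2 of them were called. Hoxa5 was at 14.2, 25.2 and 16.2 RPKM in control and at 12.2, 20.4 and 12.3 at 16 HPI, a log2 fold change of -0.31 (SE 0.06, adjusted p = 0.00146 by edgeR). The groups overlapped, with replicate 2 high in both, and within the replicate numbers the differences were -0.21, -0.30 and -0.40. Hoxa7 was at 12.8, 16.9 and 14.3 RPKM in control and at 10.2, 13.7 and 12.6 at 16 HPI. It fell by 0.27 on the log2 scale (SE 0.07, adjusted p = 0.00511). With replicate 1 left out of control and 16 HPI, the adjusted p of Hoxa7 by edgeR was 0.0566. Hoxa7 shares 20.4% of its exon length with Hoxaas3 on the opposite strand.

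Hoxa9 and Hoxa10, genes of thoracic and lumbar levels towards the tail end of the cluster, were the called ones at 24 HPI. Hoxa9 went from 6.40, 5.25 and 6.96 RPKM in control to 8.01, 6.26 and 7.90 at 24 HPI, a log2 fold change of 0.25 (SE 0.07, adjusted p = 0.0160 by edgeR). Without control replicate 2 or 24 HPI replicate 1 its adjusted p was 0.0711 and 0.119. Hoxa10 went from 7.20, 4.13 and 6.11 RPKM to 8.62, 5.60 and 8.35, a log2 fold change of 0.37 (SE 0.08, adjusted p = 0.00341). Both were higher in 3 of 3 replicate numbers, and both groups overlapped. All 7 tested genes of paralog groups 9 and 10 had a log2 fold change above 0 at 24 HPI, against 9 of 21 in groups 1 to 8. Of all tested genes 49.6% lay below 0. The 7 include Hoxd10, which passed the limit for testing only through replicate 1. Its differences within replicates 1, 2 and 3 were 0.77, 0.05 and -0.22. The contrast of the paralog groups was not tested.

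In the Hoxb cluster, the trunk gene Hoxb6 fell and Hoxb9, nearer the tail end, rose. Hoxb6 was at 6.99, 19.1 and 7.55 RPKM in control and at 5.21, 11.2 and 6.98 at 16 HPI, a log2 fold change of -0.46 (SE 0.11, adjusted p = 0.00500 by edgeR). Replicate 2 fell most, by 0.77 on the log2 scale, and without control replicate 2 or 16 HPI replicate 2 the adjusted p was 0.0707 and 0.0744. Hoxb9 was at 2.94, 8.54 and 8.96 RPKM in control, at 4.46, 10.7 and 10.9 at 8 HPI and at 5.16, 9.68 and 10.8 at 16 HPI. Its log2 fold change was 0.37 (SE 0.10, adjusted p = 0.0311) at 8 HPI and 0.36 (SE 0.10, adjusted p = 0.0141) at 16 HPI. Leaving out single libraries lost the call at 8 HPI in 5 of 6 cases, all but control replicate 3 (adjusted p up to 0.167), and at 16 HPI in 3 of 6: without control replicate 1 (0.0760), 16 HPI replicate 1 (0.0592) and 16 HPI replicate 3 (0.0669).

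Hoxc8, a gene of brachial and thoracic levels, was the called gene of the Hoxc cluster. It was at 2.03, 1.38 and 1.63 RPKM in control and at 2.81, 2.08 and 2.12 at 16 HPI, without overlap. The log2 fold change was 0.45 (SE 0.15, adjusted p = 0.0302 by edgeR), and 0.07 at 24 HPI, where it was at 1.54, 1.80 and 1.92 RPKM. The adjusted p at 16 HPI was 0.127 without control replicate 2, 0.0975 without control replicate 3 and 0.177 without 16 HPI replicate 1. Hoxa3 and Hoxb3, of the paralog group used from the lower hindbrain on, were called over the course (adjusted p = 0.0387 and 0.0213) and at no single time. The call of Hoxa3 was lost in 13 of 23 alternatives and that of Hoxb3 in 5.

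**Figure D3:**
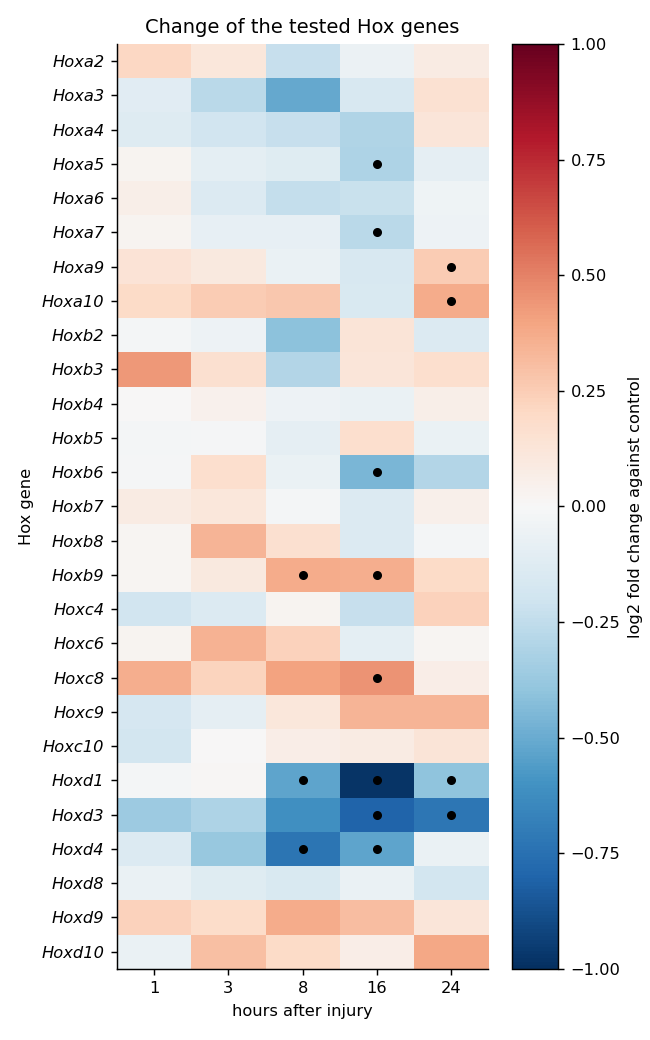
Log2 fold change against control (colour, from -1 to 1) of the tested Hox genes (rows, by cluster and paralog number, 1 not shown) at 1, 3, 8, 16 and 24 HPI (columns). Dots mark an adjusted p under 0.05: 0, 0, 3, 8 and 4 genes, with Hoxd1 called at 8, 16 and 24 HPI.

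Without the replicate number in the model, 1 Hox gene was called at 16 HPI (Hoxd1), 1 over the course and none at 8 or 24 HPI. With DESeq2 the numbers were 2 at 8 HPI, 5 at 16 HPI and 3 at 24 HPI. Leaving out 8 HPI replicate 3 gave 1 at 8 HPI. Leaving out control replicate 1 or 16 HPI replicate 1 gave 5 at 16 HPI, and leaving out control replicate 2 or 24 HPI replicate 1 gave 2 at 24 HPI. The shares of all tested genes called under these settings were not computed. Whether the losses were particular to the Hox genes can therefore not be told. The steps between time points were added after values were seen. At 16 against 8 HPI 3 of 28 Hox genes were called, all lower (Hoxa10, Hoxb6 and Hoxd1). Of all tested genes 15.2% were called, in either direction. At 24 against 16 HPI 5 of 28 were called, all higher (Hoxa5, Hoxa7, Hoxa9, Hoxa10 and Hoxd1), against 9.82% of all in either direction. Hoxa10 fell by 0.41 on the log2 scale in the first step (SE 0.09, adjusted p = 0.00238) and rose by 0.52 in the second (SE 0.08, adjusted p = 0.000346). The calls of Hoxa5 and Hoxa7 between 16 and 24 HPI were lost in 9 and 7 of 11 alternatives, among them leaving out 16 HPI replicate 1 or 2 and 24 HPI replicate 1 or 3, and for Hoxa5 also 16 HPI replicate 3. Without 16 HPI replicate 1, 24 HPI replicate 1 or 24 HPI replicate 3, the 5 genes of this step became 3.

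The Hox genes differed more between replicate numbers than over time. The replicate number was called for 20 of 28, or 71.4% against 60.9% of all tested genes, 6 of 9 in Hoxa, 7 of 8 in Hoxb, 2 of 5 in Hoxc and 5 of 6 in Hoxd. Of 22 alternatives, 16 lost the call of Hoxd8 and 3 that of Hoxb3. Hoxd10 is among the genes counted, although it passed the limit for testing only through replicate 1. The largest difference between 2 replicate numbers had a median size of 0.51 on the log2 scale over the 28 genes and of 0.22 over all tested genes. For the largest difference from control over the time points these medians were 0.34 and 0.23. A difference over 2-fold was called for Hoxb6, Hoxb8, Hoxb9 and Hoxd9. Hoxd10, which serves as a description only, brings the share to 17.9%, against 5.24% of all. The 6 libraries of 1 number lay apart from the other 12 in 9 Hox genes (32.1%), against 11.1% of all tested genes. Hoxd10 is among these 9 as well. Leaving out each library in turn gave between 18 and 20 called genes.

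Genes of the middle of the Hoxb and Hoxa clusters were highest in replicate 2. Over its 6 libraries Hoxb6 ran from 11.2 to 19.3 RPKM with a median of 16.3 in replicate 2, from 5.11 to 7.74 (median 6.54) in replicate 1, and from 6.98 to 9.94 (median 7.45) in replicate 3. No library of replicate 2 overlapped the others, and replicate 2 exceeded replicate 1 by 1.32 on the log2 scale (SE 0.08, adjusted p = 3.03e-11 by edgeR), or 2.49-fold. Hoxb8, of the same cluster, had a median of 2.55 RPKM in replicate 2, 0.912 in replicate 1 and 1.21 in replicate 3, a log2 difference of 1.42 (SE 0.11, adjusted p = 1.25e-09) between replicates 2 and 1. Hoxa5 had medians of 13.9, 24.3 and 14.9 RPKM in replicates 1, 2 and 3, with a log2 difference of 0.76 (SE 0.05, adjusted p = 2.94e-11). Hoxb9 followed another order, with medians of 4.16, 9.18 and 8.75 RPKM, so that replicate 1 was low and replicates 2 and 3 overlapped.

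**Figure D4:**
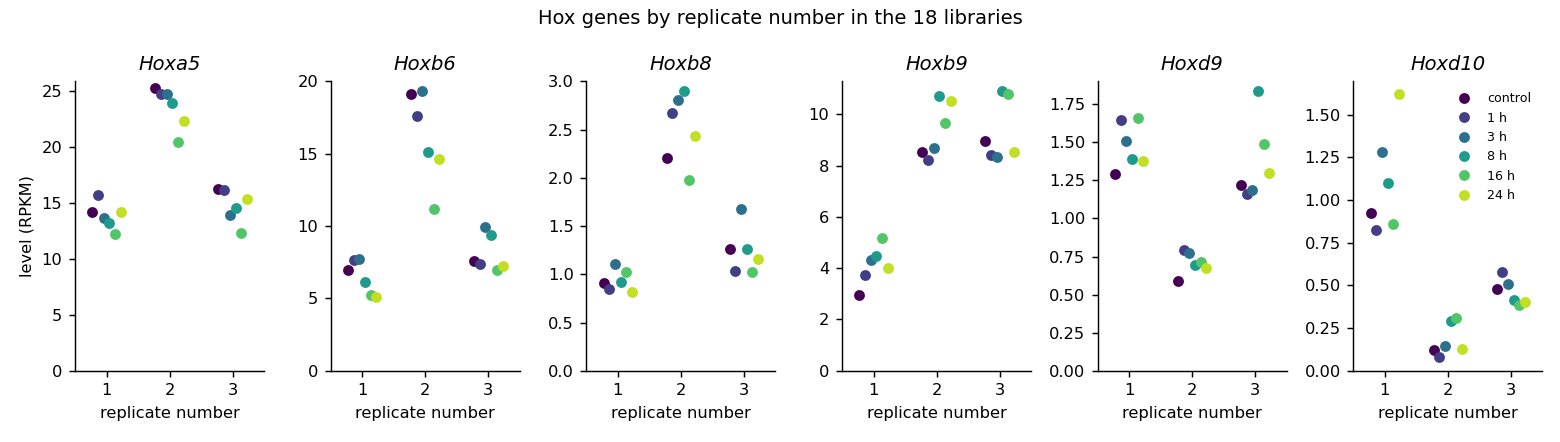
Levels in RPKM (y axis, from 0) of 6 Hox genes in the 18 libraries by replicate number (x axis), with 1 point for each group, coloured by time. Hoxa5, Hoxb6 and Hoxb8 are highest in replicate 2, Hoxb9 is lowest in replicate 1, and Hoxd9 and Hoxd10 are lowest in replicate 2.

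Genes of groups 9 and 10 other than Hoxb9 had their lowest mean level in replicate 2. Hoxd10, a gene of lumbar levels, ran from 0.823 to 1.62 RPKM (22 to 48 counts) in replicate 1, from 0.0823 to 0.312 (3 to 10 counts) in replicate 2 and from 0.386 to 0.580 (13 to 18 counts) in replicate 3. These ranges do not overlap. Of the 7 libraries in which Hoxd10 was over 1 CPM, 6 were of replicate 1. It passed the limit for testing only through these, so its values are given as a description. Hoxd9 was also lowest in replicate 2, with medians of 1.45, 0.705 and 1.26 RPKM and a log2 difference of replicate 2 from replicate 1 of -1.04 (SE 0.13, adjusted p = 3.27e-06 by edgeR). Hoxa10 had medians of 7.69, 5.23 and 6.91 RPKM, with a log2 difference of -0.59 (SE 0.06, adjusted p = 8.42e-08), and Hoxc10 medians of 2.63, 1.78 and 2.17 RPKM, with one of -0.58 (SE 0.12, adjusted p = 0.000940).

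Between replicates 2 and 1, 11 of the 21 tested genes of groups 1 to 8 were called higher in replicate 2 and 1 lower, the lower one being Hoxd1. Of groups 9 and 10, Hoxa9, Hoxa10, Hoxc9, Hoxc10 and Hoxd9 were called lower and Hoxb9 higher, leaving out Hoxd10. Over all tested genes 16.3% were called higher and 16.8% lower. The untested Hoxd11, with 68, 4 and 41 counts summed over the 6 libraries of replicates 1, 2 and 3, and Hoxc11, with 43, 3 and 15, had their lowest sums in replicate 2. Hotair, a noncoding gene of the Hoxc cluster, was at 0 in 5 of the 6 libraries of replicate 2 and had 0.162 to 0.508 CPM in replicate 1. As a share of the summed Hox level, the Hoxb cluster held 27.0% to 30.8% in replicate 1, 38.5% to 40.6% in replicate 2 and 31.1% to 36.1% in replicate 3, in 6 libraries each. The Hoxd cluster held 15.2% to 17.2%, 9.52% to 10.7% and 12.5% to 16.3%.

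**Figure D5:**
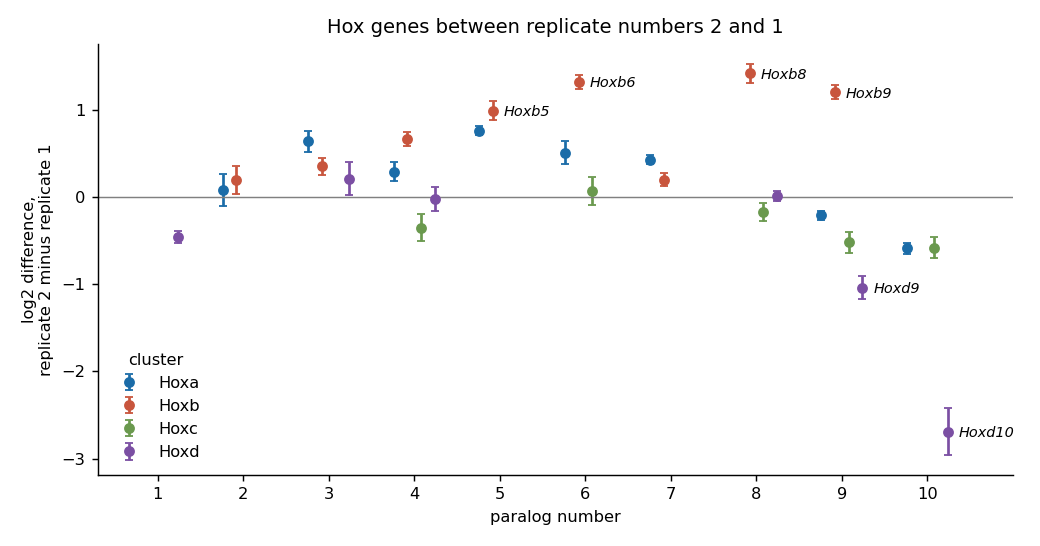
Log2 difference of replicate 2 from replicate 1 (y axis) of the tested Hox genes (1 not shown) by paralog number (x axis), coloured by cluster, with bars for the SE. Hoxb5, Hoxb6, Hoxb8 and Hoxb9 lie near or above 1 and Hoxd9 and Hoxd10 below -1, while the genes of groups 9 and 10 other than Hoxb9 lie below 0. Hoxd10 passed the limit for testing only through replicate 1.

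Other genes moved with the replicate number too. Calca, a neuropeptide gene of pain-sensing neurons, was at 508, 138 and 124 CPM in control replicates 1, 2 and 3, and the choline transporter Slc5a7 at 18.9, 11.6 and 14.9. Summed glial markers were 2.32 to 6.11 CPM in replicate 1, 1.55 to 3.39 in replicate 2 and 3.08 to 12.7 in replicate 3. Summed markers of spinal cord neurons, nearly all from Slc5a7, were 18.9 to 22.1, 11.1 to 13.8 and 10.3 to 15.0 CPM. Other members of that list ran the other way, on at most 10 counts in a library: Lbx1 was at 0.174 to 0.516 CPM in the 6 libraries of replicate 2 and at 0 to 0.0612 in those of replicate 1, and Pax2 reached 0.396 in replicate 2 and was at 0 throughout replicate 1. The part of these in the Hox differences was not tested.

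The 9 cofactors of the Pbx, Meis and Pknox families were all tested. At 1, 3, 8, 16 and 24 HPI 0, 0, 1, 2 and 2 were called, against 0.276%, 0.189%, 7.68%, 22.2% and 15.0% of all tested genes, with a median log2 fold change of -0.02 at 16 HPI. Pknox2 fell by 0.54 on the log2 scale (SE 0.06, adjusted p = 1.86e-06 by edgeR) at 16 HPI, as did Meis2 by 0.41. Pknox1 rose at 8 HPI by 0.33, and Pbx2 and Meis3 rose at 24 HPI by 0.28 and 0.29. The replicate number was called for 7 of the 9, against 60.9% of all. Cdx1, Cdx2 and Cdx4, which switch on Hox genes in the embryo, had at most 2 counts in any library, and the homeobox genes Evx1 and Evx2 that flank the Hoxa and Hoxd clusters at most 1.

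Polycomb proteins keep unused Hox genes silent and Trithorax proteins keep used ones active. A list of 20 chromatin regulators, all tested, held mostly such proteins, and also the insulator protein Ctcf. Of these 0, 0, 3, 8 and 4 were called at 1, 3, 8, 16 and 24 HPI, where 0.276%, 0.189%, 7.68%, 22.2% and 15.0% of all tested genes were. At 16 HPI 7 were higher, against 10.7% of all, and 1 lower, against 11.5%, with a median log2 fold change of 0.14 where all tested genes had one within 0.002 of 0. Rnf2, a subunit of Polycomb complex 1, rose by 0.31, 0.40 and 0.32 at 8, 16 and 24 HPI (SE 0.08, 0.07 and 0.07, adjusted p = 0.0157, 0.000417 and 0.00499 by edgeR). The histone methyltransferase Kmt2b, a Trithorax protein, fell by 0.31, 0.35 and 0.33 on the log2 scale at these times. Phc3 and Kmt2a, the most highly counted beside Kmt2b, were at 58.1 ± 2.53 and 54.0 ± 9.25 CPM in control (SD, n = 3), and Kmt2a fell by 0.35 at 24 HPI.

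Among the 46 other annotated genes within the cluster bounds, 6 were tested: the noncoding Haglr, Hoxd3os1, Gm53, Hoxaas2 and Hoxaas3, and 5730596B20Rik, annotated as protein-coding. None was called at any time against control. Of all tested genes 0.276%, 0.189%, 7.68%, 22.2% and 15.0% were called at 1, 3, 8, 16 and 24 HPI. Over the course 1 of the 6 was called, against 30.0% of all tested genes. It was Haglr, the neighbour of Hoxd1 (adjusted p = 0.0423 by edgeR's F test). Haglr was at 5.44, 5.01 and 6.31 CPM in control and at 4.05, 4.59 and 5.18 at 16 HPI. Its log2 fold change at 16 HPI was -0.27 (SE 0.15) beside -0.98 for Hoxd1. By replicate number 3 of the 6 were called (Gm53, Hoxd3os1 and Hoxaas3), against 60.9% of all tested genes. Gm53, in the Hoxb cluster, was highest in replicate 3, at 2.44, 1.84 and 4.62 CPM in control.

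Markers of other cells moved at the times at which Hox genes were called. At 8 HPI 1 was called, Ccnb1 of dividing cells, which rose by 0.98 (SE 0.28, adjusted p = 0.0316 by edgeR). Dcn, a fibroblast gene, was at 0.813, 0.221 and 0.674 CPM in control replicates 1, 2 and 3 and at 3.27, 1.42 and 2.70 at 16 HPI. Its log2 fold change was 2.07 (SE 0.28) at 16 HPI and 2.22 at 24 HPI. It passed the limit for testing only through libraries of 16 and 24 HPI, so these values are given as a description. Col1a1, Col1a2 and Col3a1 were not called. Cd68 of myeloid cells rose by 0.97 and 0.93 at 16 and 24 HPI. Top2a of dividing cells was higher by 1.44 at 24 HPI. It passed the limit for testing only through libraries of 24 HPI, so this value is a description as well. Summed fibroblast markers were 2.73 to 9.82 CPM in control and 4.70 to 14.9 at 16 HPI, summed myeloid markers 3.37 to 4.88 and 5.24 to 5.77. Of the 7 sensory neuron markers 1 was called at 16 HPI, against 22.2% of all tested genes. It was the neuronal tubulin Tubb3, which fell by 0.40 on the log2 scale. The values of Avil, Pou4f1, Isl1 and Prph were -0.08, -0.01, -0.08 and -0.01 on that scale. By 24 HPI Pou4f1 and Isl1 rose by 0.20 and 0.26 and 2 of the 7 fell, Tubb3 by 0.37. Of all tested genes 5.99% were called higher at that time and 9.03% lower. Summed sensory neuron markers were 8850 to 9390 CPM in control and 7670 to 8470 at 16 HPI. The part of these cells in the Hox changes was not tested.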

How the data were processed

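RNA sequencing of 18 eDRG spot cultures was analysed, 3 uninjured controls and 3 at each of 1, 3, 8, 16 and 24 HPI. The deposited values were raw counts per gene, made by the authors, per their methods, with cutadapt, STAR on mm10 and featureCounts with a GENCODE annotation. The submitters' processing notes name FastQC, STAR, HTSeq and DESeq2, and the 5 closing entries of each table, left out here, carry the names htseq-count writes. Whether counting used strand is not given in the sources used here. RNA was depleted of ribosomal RNA.

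Names, exon lengths and positions came from GENCODE vM21 on GRCm38, matching 47224 of 47643 identifiers. Promoters came from RefSeq (GRCm38.p6), with entries for 22 of 39 Hox genes. Where a gene had several, the start nearest the GENCODE one was taken, and bases after the start were left out.

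In R 4.3.3 with edgeR 4.0.16, libraries of 9478891 to 23082327 counts were scaled by TMM (factors 0.9136 to 1.085), genes over 1 CPM in at least 3 libraries kept, and 1 quasi-likelihood model fitted to all 18 libraries with group and replicate number. Same-numbered libraries deviated together from their group means (45 pairs, correlation 0.484 to 0.765), so the number was kept as a block. Differently numbered ones (90 pairs, -0.577 to -0.0423) give no separate evidence, since deviations from a group mean sum to 0. SE was the log2 fold change divided by the root of F. The script was tested on simulated data. Alternatives were DESeq2 1.42.0 (its size factors in edgeR, and its own test), at least 10 counts over all libraries, no filter, no replicate block, the 2 compared groups alone, each library left out, and, added after seeing the data, replicate 1 left out of control and 16 HPI, since 16 HPI replicate 1 had the highest ambiguous share. Python 3.11.15 served for tables and plots.

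Named were the 8 genes highest in control, the highest of each cluster, those called at any time or over the course, and the 5 with the smallest p by replicate number. Of the lists, genes called over 2-fold were named, and up to 3 others by control CPM. Hoxa4, Hoxb1, Hoxb4, Hoxb5, Hoxc5, Hoxc10, Hoxc11, Hoxd9, Hoxd10, Hoxd11, Hotair, the other genes of the clusters and further list members were named after their values were seen. The values of some single genes are not reported here. The members and lists were chosen with earlier results of these data known.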

Additional observations from a re-analysis of the deposited data

How the results depend on the processing

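Without the replicate block, the Hox genes called fell from 3 to 0 at 8 HPI, from 8 to 1 at 16 HPI, from 4 to 0 at 24 HPI, from 10 to 1 over the course, and to 0 in both steps between time points. The pairing by number changed no call at 1 or 3 HPI. With the DESeq2 test 5 were called at 16 HPI and 3 from 16 to 24 HPI, where fitting without a filter on low counts also gave 3. With replicate 1 left out of control and 16 HPI, 3 were called at 16 HPI. Leaving out single libraries gave 1 to 2 calls at 8 HPI, 5 to 7 at 16 HPI, 2 to 4 at 24 HPI and 3 to 5 from 16 to 24 HPI. The lowest came without 8 HPI replicate 3, without control replicate 1 or 16 HPI replicate 1, and without control replicate 2 or 24 HPI replicate 1, respectively, and from 16 to 24 HPI without 16 HPI replicate 1 or 24 HPI replicate 1 or 3. With single libraries left out, the median log2 fold change ran from -0.11 to -0.01 at 8 HPI, nearest 0 without control replicate 1, and from -0.01 to 0.08 at 24 HPI, below 0 without control replicate 2 or 24 HPI replicate 3. The share of the Hoxa cluster was 50.2% over the longest transcript. No called Hox gene reversed in any alternative. The causes were not tested. Shares of all tested genes called in the alternatives were not computed, so whether these losses were particular to the Hox genes cannot be told. Depth limits the 11 untested genes, whose counts reached at most 17 in a library.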
